A study of Mus musculus with 38 samples.

Results

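CD28 is the main costimulatory receptor of T cells, and the libraries described here come from CD4+ T cells of mice labelled CD28-/-, taken either as freshly isolated naive cells or after 24 h of stimulation. They were chosen by their sample labels alone, which gave 4 naive libraries and 4 libraries at 24 h, 8 of the 38 in the series (19 naive and 19 at 24 h). The matching 4 naive and 4 stimulated wild-type (wt) libraries were used to show where the response of the CD28ko-labelled cells differed. Libraries of the other genotypes (T1792Δ/Δ, T1792tg and rescue) entered only the common estimate of the spread. Each library came from a single mouse of either sex, whose lymph nodes and spleen were pooled and whose naive CD4+ cells were purified with a StemCell isolation kit for naive CD4 cells. For stimulation, cells of both genotypes spent 24 h in medium with 50 U/ml of interleukin-2 (IL-2), on plates to which antibodies against CD3 (0.5 µg/ml) and against CD28 (0.2 µg/ml) had been bound. The CD28ko-labelled wells thus also held the CD28 antibody, and all stimulated cells received IL-2 from outside. No culture without anti-CD3 is among these groups, so receptor engagement, IL-2 and 24 h in culture cannot be told apart. The deletion is germline, per its name, so it would also have been present while the cells developed. The sources used here give neither the age of the mice nor the strain of the wild-type ones, and nothing in the labels ties a naive library to a stimulated one from the same mouse.

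As background, a naive T cell is classically activated by a pair of signals. The T cell receptor acts through the kinases Lck and Zap70 and opens the calcium, MAP kinase and NF-kB branches, while CD28 adds to PI3K, AKT and NF-kB signalling. Its engagement is best known for raising IL-2 output, glucose uptake and survival proteins such as Bcl-xL, and T cell receptor signalling without it is the textbook way to induce anergy, a state of poor cytokine output.

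Library size ranged from 20911103 to 25677763 counts in the 8 CD28ko-labelled libraries and from 21129279 to 26471088 in the 8 wild-type ones. Values are CPM, counts scaled to a common library total, which are shares of a library, so a lower CPM cannot tell fewer cells of a type from less RNA per cell. Cd28 itself (Entrez 12487, chr1:60746388-60773359, positions from RefSeq on GRCm38.p6) was counted at 551, 846, 826 and 725 CPM in the naive CD28ko-labelled libraries and at 527, 523, 598 and 506 CPM at 24 h. Wild-type naive libraries held 815, 926, 842 and 716 CPM and stimulated ones 353, 292, 345 and 377 CPM. The whole-gene count was thus not lower in the libraries labelled CD28-/-; the labels do not say which part of the gene is deleted, so the count neither checks the label nor goes against it, and the libraries are called CD28ko-labelled throughout. Cd4 stood at 927–1035 CPM in the naive libraries and 443–505 CPM at 24 h, against 14.1–17.1 and 5.61–7.02 CPM for Cd8a, as the label of CD4+ cells has it. Naive CD28ko-labelled library 1 stood apart, with a log2 deviation from the group mean of 0.392 (SD over genes) against 0.282 to 0.307 in the other 3. That library also held more red cell (472 against 18.4 to 134 CPM in sum), B cell (1541 against 813 to 946 CPM) and myeloid marker RNA (308 against 146 to 195 CPM), and more RNA of dividing cells. Over the longest 10% of genes its median log2 deviation was -0.21, against 0.041 to 0.092 in the other 3. By Xist and Y-linked genes all 8 CD28ko-labelled libraries were female, as were 3 of 4 wild-type libraries in each state; with female libraries alone 2783 response differences passed upward and 3012 downward. Beside some of the results that naive library 1 touches, the value without that library is given.

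Stimulation changed most of the transcriptome of the CD28ko-labelled cells. Of 13650 genes tested, 5417 rose (39.7%) and 5624 fell (41.2%), so that 80.9% passed the test (edgeR quasi-likelihood F test, Benjamini-Hochberg adjusted p under 0.05). Of these, 2568 changed at least 4-fold, 937 upward and 1631 downward, and the 4 naive and 4 stimulated libraries did not overlap for 10309 genes (75.5%). The median gene moved by -0.041 on the log2 scale. In wild-type cells 85.2% of genes passed (41.3% rose and 43.9% fell) and 3671 changed at least 4-fold. With so many genes called, the shares of 39.7% and 41.2% are the background against which the counts of each gene list are read.

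Wild-type and CD28ko-labelled responses were alike in direction and unlike in size. Over the 13650 genes the 2 log2 responses had a Pearson r of 0.91 and a Spearman rho of 0.921, a description across genes, which are not independent replicates. Of 10076 genes called in both, 9826 moved the same way and 250 in opposite ways. The response was smaller in the CD28ko-labelled cells for 7130 of the 9826 (72.6%), and the median size of a response was 0.87 against 1.13 on the log2 scale. When the difference between the 2 responses was tested directly, 5905 genes passed (43.3%), with 2846 (20.8%) higher and 3059 (22.4%) lower in the CD28ko-labelled response. In 4235 of the 5905 (71.7%) both responses had the same sign and the CD28ko-labelled one was the smaller; in 736 it was the larger and in 934 the signs differed. For 4389 genes (32.2%) the 95% interval of the difference lay within 1.5-fold in either direction.

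**Figure D1:**
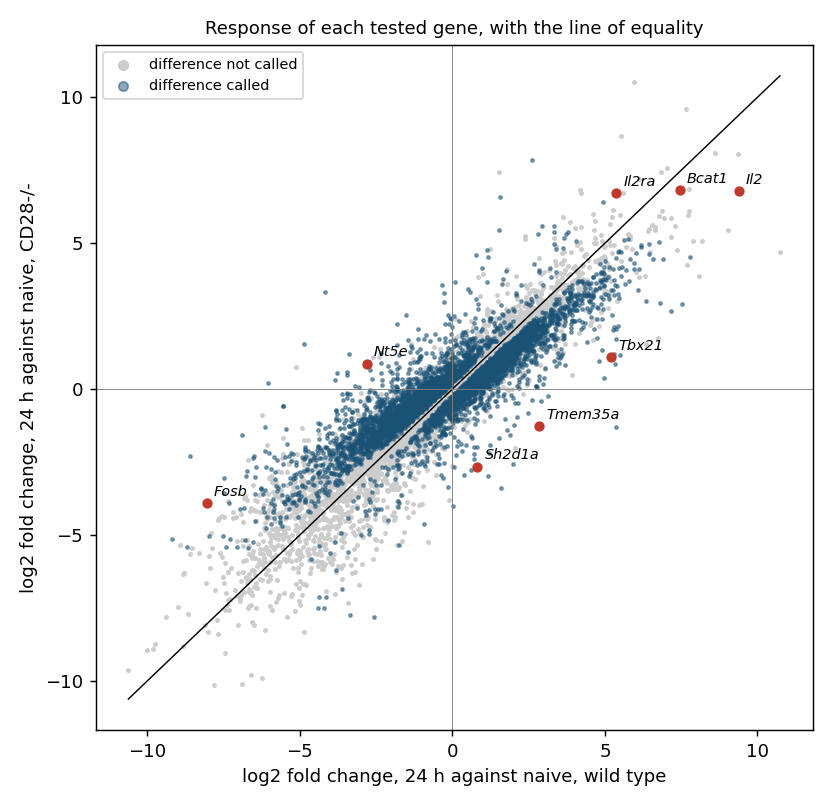
Log2 response to 24 h of stimulation in wild-type cells (x axis) and CD28ko-labelled cells (y axis), 1 point per tested gene, with genes whose response difference passed the test in blue, some genes labelled in red and the line of equal response drawn. Most points lie along the line with a slope below 1 (major axis slope 0.844).

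The antigen receptor machinery itself was lowered. Of 16 genes of the receptor complex and its proximal signalling, 13 fell and 2 rose, with a median log2 change of -0.79 (-1.03 in wild type). Cd247, the zeta chain that carries the signalling motifs, stood at 581, 555, 575 and 607 CPM in the naive libraries and at 135, 136, 120.3 and 146 CPM at 24 h, and fell (log2 change -2.11 ± 0.073, SE, n = 4 and 4, adjusted p = 9.52e-24). All changes are log2 changes from the naive libraries with their SE, and all adjusted p-values come from the same edgeR fit. The decrease of Cd247 was larger than in wild type, where 166–177 CPM remained (response difference -0.51 ± 0.1, adjusted p = 8.30e-05). The adaptor Grap2 went from 553–729.7 to 159–173 CPM, and the phospholipase Plcg1 from 334–394 to 167–186 CPM, both smaller decreases than in wild type. Zap70, the kinase recruited to the zeta chain, was the clearest exception, at 242, 219, 228 and 209 CPM before and 453, 449, 438 and 501 CPM after. It rose by 1.04 ± 0.062 (adjusted p = 3.90e-17), and the adaptor Lcp2 rose by 0.43 ± 0.068 (adjusted p = 7.43e-07).

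Transcription factors of early activation moved in both directions. Of 22 listed, 9 rose and 10 fell, near the background shares of 39.7% and 41.2%. Myc, the driver of growth and metabolism in activated T cells, rose in every stimulated library, from 86.4, 83.2, 83.7 and 80.2 CPM to 337, 377, 368 and 362 CPM (2.11 ± 0.092, adjusted p = 5.00e-21). The naive cells held less Myc than wild-type ones (135–164 CPM), and wild-type cells reached 489–509.8 CPM. Irf4, whose level follows the strength of the receptor signal, rose from 139–194 to 953–1099 CPM, close to the wild-type range at 24 h of 1272–1345 CPM. Nr4a1, another gene whose level follows the receptor signal, fell from 823–864 to 303–316 CPM, less than in wild type, which ended at 161–192 CPM. The calcium- and MAP kinase-driven Egr2 and Egr3 rose more than in wild type. Egr3 stood at 27.4, 27.6, 27.3 and 24.8 CPM naive and 142, 138, 152 and 147 CPM at 24 h, above the 79.7–90.4 CPM of stimulated wild-type cells (response difference 1.18 ± 0.17, adjusted p = 8.31e-07). Egr2 ended at 84.9–88.3 CPM against 63.5–66.7 CPM, with a lower start than in wild type (21.2–23.2 against 42–59.6 CPM; response difference 1.55 ± 0.20, adjusted p = 1.40e-07). Nfatc1, the inducible NFAT factor, rose in CD28ko-labelled cells, from 191–223 to 379–403 CPM, and read 202–232 and 210.5–222 CPM in wild type (response difference 0.94 ± 0.11, adjusted p = 9.22e-09).

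Fos and Jun, the AP-1 subunits first made after any stimulus, were high in the naive libraries and low at 24 h: Jun went from 673, 606, 661 and 603 CPM to 30.1, 24.9, 22.7 and 21 CPM (-4.69 ± 0.16, adjusted p = 2.63e-24). A list of 12 genes known to rise during tissue dissociation, which holds Fos, Fosb and Jun as well as heat shock genes, moved with it: 10 fell, none rose, and their summed level was 3871 to 4563 CPM in the naive and 1318 to 1503 CPM in the stimulated libraries. Naive wild-type libraries were higher and more variable, at 4757 to 13073 CPM. The part of isolation in these decreases was not tested. Fosb, for example, stood at 99.4–146 CPM naive in the CD28ko-labelled libraries and at 264–458 CPM in wild type, and the large response difference of 4.14 ± 0.36 (adjusted p = 4.53e-11) lies beside these unequal starting levels.

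Batf, an AP-1 partner of Irf4, went the other way from wild type. Batf stood at 50.7, 35.2, 38.9 and 46.7 CPM naive and at 25.6, 25.9, 25.4 and 30.5 CPM at 24 h in CD28ko-labelled cells, a log2 change of -0.67 ± 0.14 (adjusted p = 6.82e-05), and rose in wild type to 65.1, 56.7, 59.8 and 46.1 CPM (0.46 ± 0.14, adjusted p = 0.0031). Its relative Batf3 was near 0 in the stimulated CD28ko-labelled libraries (0.0418, 0.0863, 0 and 0.0377 CPM) and at 2.71, 3.14, 2.11 and 0.601 CPM in wild type. Tbx21, the T helper 1 factor T-bet, rose only slightly, from 4.2, 3.65, 3.04 and 3.02 CPM to 6.82, 8.67, 9.2 and 5.13 CPM (1.09 ± 0.29, adjusted p = 0.00103), while stimulated wild-type cells held 109, 143, 114 and 101 CPM. That response difference, -4.11 ± 0.41 (adjusted p = 8.57e-10), was among the most negative of all genes.

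Cytokine genes were switched on weakly. Of 23 listed, 20 could be tested; 10 rose and 5 fell, and the median change was 0.55 against 1.83 in wild type. Il2 (Entrez 16183, chr3:37120713-37125954), the growth factor made by newly activated T cells, was almost absent from the naive libraries, with 0.0885, 0.0462, 0.0868 and 0 CPM. At 24 h it stood at 7.07, 6.43, 7.51 and 6.83 CPM in all 4 CD28ko-labelled libraries, a change of 6.79 ± 0.48 (adjusted p = 3.06e-15). Every stimulated library was above every naive one. Stimulated wild-type libraries held 125, 159, 155 and 183 CPM, with no overlap between the genotypes. Both naive groups were near 0, and the difference of the 2 responses had a wide error and did not pass (-2.6 ± 1.49, 95% interval -5.62 to 0.43, adjusted p = 0.164). It passed with DESeq2 in place of edgeR (-2.52, adjusted p = 0.00474), with only the compared libraries in the fit (-2.61, adjusted p = 0.0311) and with the replicate number as a block (-2.59, adjusted p = 0.0481).

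The Il2 promoter is shown because NFAT, which the receptor can activate without CD28, is known to bind there. The window runs from 250 bases before to 50 bases after the start given by RefSeq (GRCm38.p6, chr3:37125905-37126204, minus strand), is written 5′ to 3′ along the gene, and has the NFAT core GGAAA, searched on both strands, in capitals (TTTCC is the core on the other strand).
Il2 promoter: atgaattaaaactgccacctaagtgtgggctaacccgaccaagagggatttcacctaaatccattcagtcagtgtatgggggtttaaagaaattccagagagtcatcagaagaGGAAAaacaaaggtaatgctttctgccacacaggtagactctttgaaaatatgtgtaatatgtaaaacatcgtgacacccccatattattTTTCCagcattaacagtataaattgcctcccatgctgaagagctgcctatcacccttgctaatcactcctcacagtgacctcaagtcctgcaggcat
These 5 letters occurred 2 times in the window. They are common: 16 of 18 promoter windows of the tested cytokine genes held at least 1 (88.9%), as did 61.3% of all 32851 windows of that length. A match describes letters and is not a binding site.

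Several other cytokines were induced to a fraction of the wild-type level. Ccl4, a chemokine, rose from 7.3, 2.08, 3.04 and 2.36 CPM to 24, 24.7, 23.9 and 30.7 CPM, while wild-type cells reached 108–149 CPM (response difference -1.97 ± 0.44, adjusted p = 4.53e-04). Lif rose from 1.54–2.26 to 8.58–11.3 CPM, and in wild type from a higher start of 7.64–12.7 CPM to 62.3–85.5 CPM. Lta rose from 10.9–13.4 to 48.6–54 CPM, and in wild type from 17.0–17.5 to 88.3–113 CPM. Tnf showed a small increase, from 12–14.8 to 17.2–19.4 CPM (0.47 ± 0.17, adjusted p = 0.0127), and ended at 41.7–58.9 CPM in wild type. Ifng and Ccl3 did not pass the test: Ifng stood at 3.32, 1.99, 1.61 and 2.15 CPM before and 1.59, 1.81, 1.61 and 2.04 CPM after, and Ccl3 at 9.73, 3.37, 4.08 and 3.43 and 6.03, 6, 5.99 and 5.62 CPM, of which the 9.73 CPM is the naive library that stood apart. Without that library the Ccl3 change was 0.70 with an adjusted p of 0.0324. Wild-type libraries held 8.02–20.9 CPM of Ifng and 39.5–61 CPM of Ccl3 at 24 h, and both response differences passed (-2.08 ± 0.60 and -2.8 ± 0.41, adjusted p = 0.00518 and 1.06e-06). Il3, near 0 in both naive groups, gave 0.293, 0.0431, 0.201 and 0 CPM at 24 h against 5.87, 11.8, 9.59 and 8.5 CPM in wild type.

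Xcl1 differed in its end level from the cytokines just described. This chemokine rose from 7.12, 5.5, 5.47 and 4.76 CPM to 68.1, 60.6, 62.4 and 67.4 CPM (3.5 ± 0.19, adjusted p = 3.22e-18) and ended above the wild-type range of 32.6–42.4 CPM. The difference of the responses did not pass the test (-0.32 ± 0.28, 95% interval -0.89 to 0.24, adjusted p = 0.371), and the naive CD28ko-labelled cells also started above the 2.24–3.34 CPM of wild type. Ltb, made by resting lymphocytes, fell from 342–442 to 132–167 CPM, less than in wild type, where 49.1–65.8 CPM remained.

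The alpha and beta chains of the IL-2 receptor rose and the gamma chain fell. Il2ra, the alpha chain known as CD25 (Entrez 16184, chr2:11642792-11693194), stood at 4.38, 5.59, 5.25 and 5.69 CPM in the naive libraries and at 537, 557, 552 and 537 CPM at 24 h, an increase of 6.71 ± 0.13 (adjusted p = 1.33e-30). Stimulated wild-type cells held 651, 634, 655 and 624 CPM, slightly more, while naive wild-type cells also started higher (16.1, 13.7, 16.8 and 15 CPM). The response was larger in CD28ko-labelled cells (1.33 ± 0.15, adjusted p = 1.44e-08). Over the 16 genes of the IL-2 receptor and STAT5 list, 8 rose and 7 fell, beside 39.7% and 41.2% of all genes. The beta chain Il2rb rose from 95.1–110.4 to 149–156 CPM, less than in wild type (194–243 CPM), and the common gamma chain Il2rg fell slightly, from 915–999 to 704–821 CPM. Among targets of STAT5, the factor that IL-2 activates, some rose: Cish went from 10.4–12.8 to 63.1–76.7 CPM, Socs2 from 0.768–1.62 to 7.38–11 CPM and the kinase Pim2 from 39.9, 39, 37.1 and 32.5 to 302, 330.2, 323 and 304 CPM. Each ended below its wild-type range at 24 h (122–153, 14.6–21.5 and 478–522 CPM), though the difference of the responses passed for Pim2 (adjusted p = 0.00439) and not for Cish and Socs2 (adjusted p = 0.788 and 0.296). Others fell, Socs3 from 99.5–114 to 9.74–12.9 CPM and the kinase Pim1 from 279.9–325 to 99–122 CPM. The IL-7 receptor chain Il7r, which naive cells need to survive, fell from 452, 599, 645 and 651 CPM to 46.5, 28.9, 29.9 and 53.4 CPM (-3.89 ± 0.19, adjusted p = 1.25e-19) but stayed above the 7.33–8.19 CPM of wild type.

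**Figure D2:**
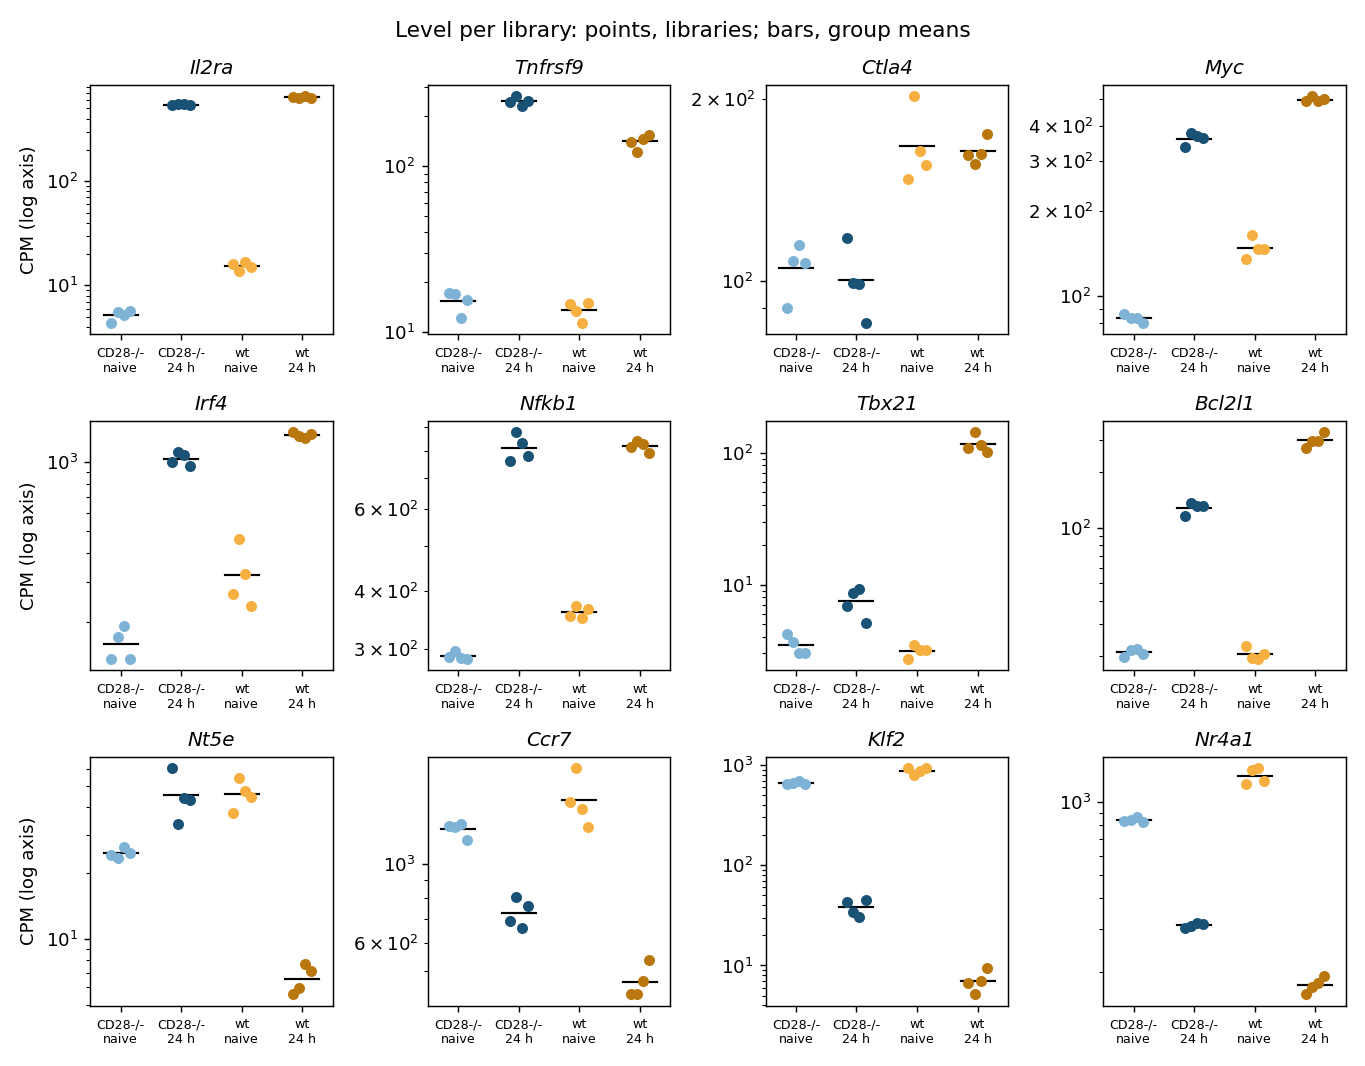
CPM on a log axis of selected genes in each library, with naive and 24 h libraries of the CD28ko-labelled and wild-type mice side by side and the group mean as a bar. Il2ra reaches 537–557 CPM in the stimulated CD28ko-labelled libraries, near wild type, while Tbx21 stays at 5.13–9.2 CPM against 101–143 CPM.

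Of 23 costimulatory and inhibitory receptors and ligands, 15 were higher and 5 lower, beside 39.7% and 41.2% of all genes. Among those at a lower level after 24 h were Cd69 (616–775 to 180–198 CPM) and Cd86 (6.33–8.91 to 0.981–1.59 CPM). The tumour necrosis factor receptor family members OX40 (Tnfrsf4) and 4-1BB (Tnfrsf9) diverged in level. Tnfrsf4 rose from 9.78, 9.61, 9.85 and 9.73 CPM to 177, 192, 166 and 179.6 CPM (4.2 ± 0.14), below the 390.3–429.6 CPM of wild type, and the difference of the responses did not pass (adjusted p = 0.234). Tnfrsf9 rose from 17.2, 16.8, 12.1 and 15.5 CPM to 243, 264, 230.1 and 247 CPM (4.0 ± 0.16, adjusted p = 3.58e-22), above the 122–155 CPM of wild type (response difference 0.62 ± 0.21, adjusted p = 0.0161). Slamf1, an adhesion and signalling receptor, rose to 199–221 CPM against 90.1–106 CPM. Both inhibitory receptors Pdcd1 (PD-1) and Lag3 were induced: Pdcd1 went from 15.9, 11.4, 10.9 and 13.7 CPM to 202, 207, 187 and 235 CPM and Lag3 from 4.3–5.75 to 56.3–68.1 CPM. Pdcd1 ended above wild type (129–157 CPM) and Lag3 below it (85–113 CPM). For Pdcd1 the naive CD28ko-labelled cells also started higher, at 10.9–15.9 CPM against 4.41–4.9 CPM in wild type. Its higher end level is thus not a larger response. Ctla4, the inhibitory relative of CD28, and the costimulator Icos did not pass the test. Ctla4 held 90.2–114 CPM before and 85.1–118 CPM after, and Icos 144–210.1 and 151–177 CPM. Cd200 rose to 213–236 CPM against 524–556 CPM, and Cd40lg, through which helper T cells act on B cells, fell from 105–148 to 52.2–58.7 CPM, further than in wild type (90.2–121 CPM).

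NF-kB genes changed in both directions, in shares near the background: of 18 listed, 7 rose and 10 fell. The subunits Nfkb1 and Nfkb2 rose. Nfkb1 went from 288, 296, 287 and 286 CPM to 762, 879, 831 and 779.9 CPM (1.49 ± 0.065, adjusted p = 5.00e-21), overlapping the 792–841 CPM of wild type, and Nfkb2 from 70.7–78.8 to 232–268 CPM (272–301 CPM in wild type). Relb and Traf1, both targets of NF-kB, rose to 92.3–101 and 197–212 CPM, with 80.6–86.7 and 143–153 CPM in wild type. Tnfaip3, the inhibitor A20, fell the most, from 3146, 3996, 4188 and 3314 CPM to 58.4, 61.2, 56.3 and 52.3 CPM (-6.0 ± 0.15, adjusted p = 1.01e-27).

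Genes of the calcineurin and NFAT pathway and of anergy changed in shares near the background of 39.7% and 41.2%. Of 24 listed, 10 were higher and 10 lower. Wild-type cells had 5 higher and 13 lower, beside 41.3% and 43.9% of all genes. The list mixes NFAT targets, diacylglycerol kinases, ubiquitin ligases and surface markers, and its members did not move as a block. Nrp1 rose from 6.72, 8.31, 7.77 and 6.04 CPM to 33.5, 33.7, 29 and 31 CPM (2.14 ± 0.17, adjusted p = 8.37e-14) and stood at 12–14.5 CPM in stimulated wild-type cells (response difference 2.15 ± 0.23, adjusted p = 4.79e-09). Izumo1r, the folate receptor 4, and Nt5e, the surface enzyme CD73, are used together to mark anergic CD4+ cells. Izumo1r rose from 138, 119, 128 and 128 CPM to 263, 264, 234 and 289.9 CPM and stood at 104–126 CPM in wild type (response difference 1.06 ± 0.13, adjusted p = 3.09e-08). Nt5e rose from 24.3, 23.5, 26.3 and 24.7 CPM to 60.6, 33.7, 44.1 and 43.2 CPM (0.88 ± 0.17, adjusted p = 1.70e-05) and fell in wild type from 37.6, 54.5, 47.6 and 44.8 CPM to 5.56, 5.93, 7.64 and 7.09 CPM. The Nt5e response difference of 3.69 ± 0.25 (adjusted p = 1.75e-13) was among the most positive of all genes.

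Dgka, a kinase that removes the second messenger diacylglycerol, fell from 1411–1659 to 605–644 CPM in CD28ko-labelled cells and further, to 196–233 CPM, in wild type (response difference 1.69 ± 0.10, adjusted p = 1.31e-14). Its relative Dgkz went from 495–535 to 418–455 CPM against 222–234 CPM. The ubiquitin ligases did not share a direction. Cblb rose by 0.45 ± 0.12 (adjusted p = 8.41e-04) and Itch fell (log2 change -1.11 ± 0.072, adjusted p = 3.54e-16). Nedd4 fell from 37.1–55.5 to 10.4–12.9 CPM and held 15.3–27.7 CPM in wild type.

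Growth programmes were induced as a whole. All 22 listed ribosome biogenesis genes rose, beside 39.7% of all genes, with a median of 1.59 (1.97 in wild type). Of them, 16 rose less than in wild type, beside 22.4% of all genes with a lower response. A smaller response was the general pattern, in 72.6% of the genes called in the same direction in both genotypes. Ncl, the nucleolar protein nucleolin, went from 927, 986, 990.3 and 989 CPM to 3515, 3634, 3971 and 3767 CPM (1.94 ± 0.072, adjusted p = 5.91e-23), with wild type at 5022–5550.4 CPM. Nolc1, a nucleolar chaperone, rose from 114–121 to 536–605 CPM and Gar1, of the pseudouridylation complex, from 18–21.7 to 126–135 CPM. Polr1b, a subunit of RNA polymerase I, reached 196, 222, 223 and 200.4 CPM from 33.6, 38.6, 40.7 and 37.1 CPM (2.49 ± 0.083, adjusted p = 2.73e-24), not far from the 241–248 CPM of wild type. The E-box CACGTG, to which Myc can bind, was found in 6 of 20 windows of these genes (30%). Its share was 7.15% of all windows and 9.8% of those of tested genes.

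Of 20 amino acid transporters and aminoacyl-tRNA synthetases, 17 rose and 2 fell, and 5 rose less than in wild type or fell more, beside 22.4% of all genes with a lower response. Slc7a5, the light chain of the leucine transporter, rose from 54.4, 63.7, 60.4 and 59.2 CPM to 219, 246, 213 and 224 CPM (1.92 ± 0.12, adjusted p = 1.94e-16), and its partner Slc3a2 fell slightly (-0.34 ± 0.08, adjusted p = 2.68e-04). Slc38a2, a glutamine transporter, fell from 621–979 to 147–162 CPM. The alanine and methionine synthetases Aars and Mars1 rose by 1.89 ± 0.083 and 1.92 ± 0.08.

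All 20 genes of serine, one-carbon, nucleotide and polyamine synthesis rose, with a median of 1.99 against 2.49 in wild type. Of them, 14 rose less than there, beside 22.4% of all genes with a lower response. Shmt1, which passes the one-carbon unit from serine to folate in the cytosol, went from 9.07, 8.91, 9.11 and 9.27 CPM to 185, 199.6, 191 and 196 CPM (4.41 ± 0.094, adjusted p = 2.10e-29). Bcat1, which degrades branched-chain amino acids, was among the largest increases of all genes, from 1.42, 1.76, 1.39 and 0.922 CPM to 150.2, 167, 162 and 147 CPM (6.82 ± 0.15, adjusted p = 4.24e-29). Srm, spermidine synthase, rose from 26.6–35.9 to 267–307 CPM, against 534–577 CPM in wild type (response difference -0.78 ± 0.11, adjusted p = 6.21e-07). The mitochondrial enzyme Mthfd2 lagged more: it reached 109.9–121 CPM from 36.3–41.3 CPM, and 257–285 CPM in wild type (response difference -0.98 ± 0.096, adjusted p = 6.13e-10). Cad, which starts pyrimidine synthesis, rose from 71.2–78.4 to 489–565 CPM, a range that overlapped wild type (470.2–557 CPM).

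**Figure D3:**
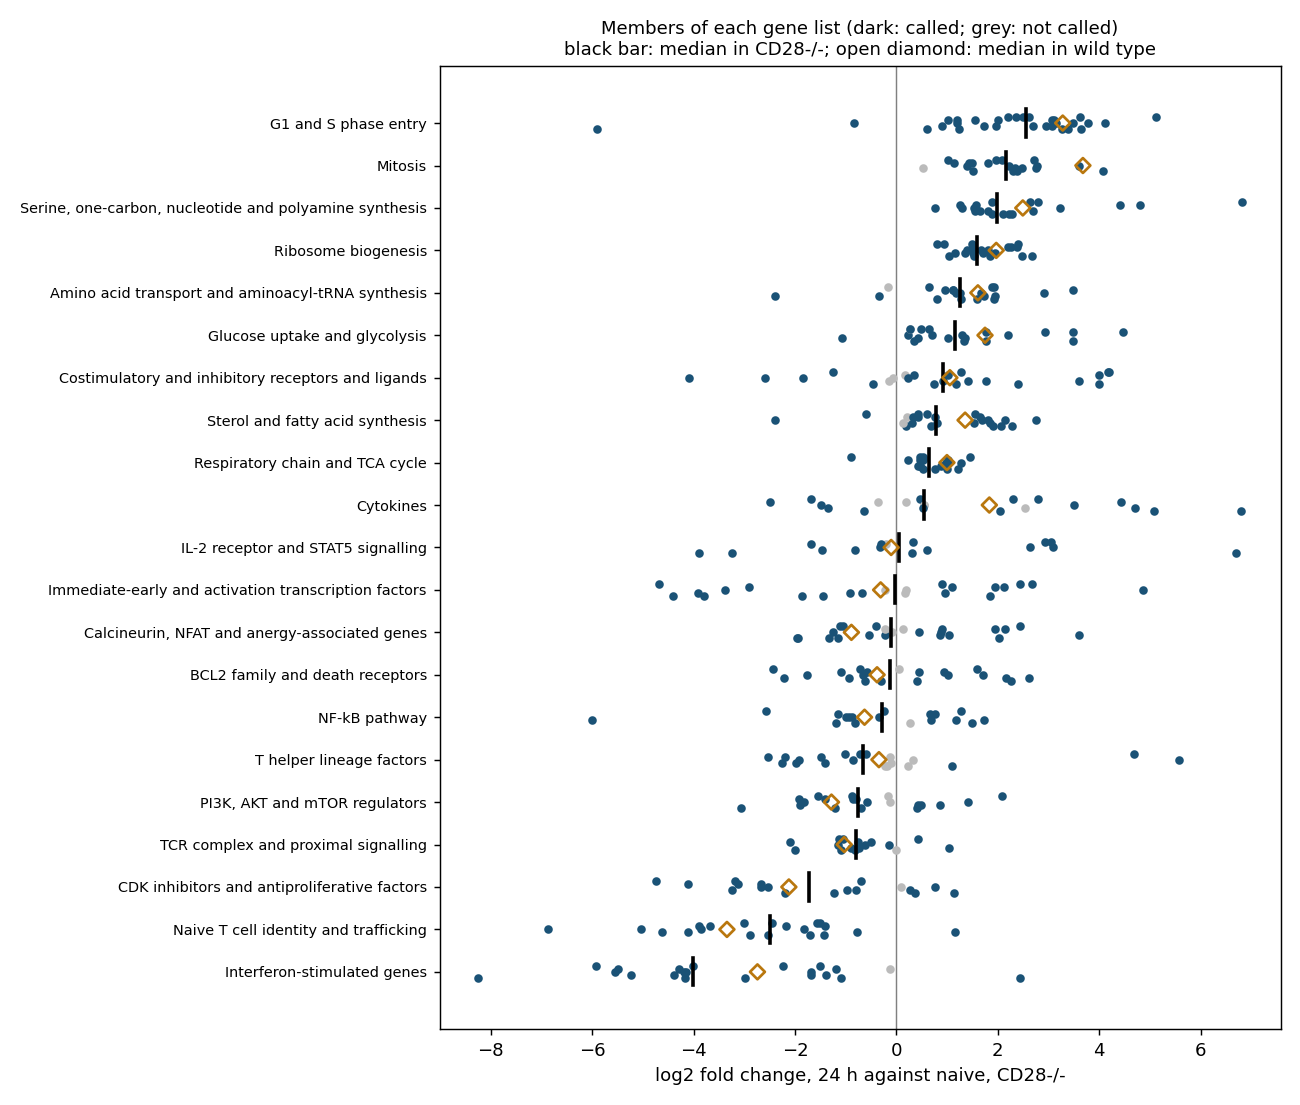
Log2 response of each tested member of the programme lists in CD28ko-labelled cells, 1 point per gene (grey where not called), with a bar at the median of each list and a diamond at its median in wild-type cells. The growth and division lists lie above 0 with medians from 0.65 to 2.56 in CD28ko-labelled cells, each closer to 0 than in wild type.

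Of 20 genes of glucose uptake and glycolysis, 18 rose and 1 fell. The response of 10 was lower than in wild type, beside 22.4% of all genes. Hk2, the inducible hexokinase, stood at 3.01, 3, 4.38 and 3.69 CPM naive and 72.8, 83.1, 79.8 and 75.5 CPM at 24 h (4.46 ± 0.17, adjusted p = 8.37e-23), with wild type at 186, 189, 193 and 179.9 CPM (response difference -1.37 ± 0.24, adjusted p = 2.48e-05). Ldha, which makes lactate, rose from 639, 534, 539 and 586 CPM to 1342, 1492, 1430.3 and 1633 CPM and to 2788–2944 CPM in wild type (response difference -1.21 ± 0.13, adjusted p = 1.57e-09). Tpi1 and Pgam1 rose by 3.48 ± 0.14 and 2.93 ± 0.079. The glucose transporter Slc2a1 moved little, from 53.3, 66.6, 67.4 and 62.9 CPM to 80.2, 80.8, 73 and 84.1 CPM (0.35 ± 0.14, adjusted p = 0.0193), and without naive library 1 its change was 0.28 with an adjusted p of 0.0788. Wild-type cells held 119–134 CPM at 24 h, and the difference of the responses did not pass (-0.44 ± 0.19, 95% interval -0.83 to -0.053, adjusted p = 0.0602), though it did under 6 alternatives, among them DESeq2 (adjusted p = 0.0462), the replicate block (adjusted p = 0.0375) and naive library 1 left out (adjusted p = 0.034). Slc2a3, the transporter of resting T cells, fell from 69.1–94.1 to 35.2–41 CPM. Gapdh was counted at only 2.71–3.82 CPM naive and 5.78–7.03 CPM at 24 h. It has many near-identical copies in the genome, so its count, like those of Npm1 and Eno1, is uncertain.

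Of 24 sterol and fatty acid synthesis genes, 20 rose and 2 fell, with a median of 0.78 against 1.35 in wild type. Idi1, an isomerase of the mevalonate pathway, rose from 6.77, 8.13, 7.46 and 8.09 CPM to 49.5, 48.6, 55.5 and 51.4 CPM (2.75 ± 0.095, adjusted p = 7.69e-24), with wild type at 75–88.6 CPM. Hmgcs1, which makes the first dedicated intermediate of the pathway, rose from 47.2, 61.8, 65.6 and 59.8 CPM to 179, 189.8, 200.4 and 184 CPM and to 234–285 CPM in wild type (response difference -0.73 ± 0.13, adjusted p = 1.57e-05). The sterol sensor Insig1, itself a target of the pathway's regulator, fell from 87.7, 114, 132 and 94.1 CPM to 67.6, 75.1, 69.7 and 68.7 CPM (-0.61 ± 0.13, adjusted p = 7.94e-05). Fatty acid synthase Fasn and acetyl-CoA carboxylase Acaca rose to 612–713 and 113–129 CPM, ranges that overlapped those of wild type (547–694 and 108–128 CPM). Among the 21 windows of these genes, 1 held the sterol element TCACNCCAC (4.76%). The share was 1.24% of all windows and 1.15% of those of tested genes. Glucose uptake and glycolysis genes held it in 2 of 31 windows (6.45%). The Hmgcs1 promoter is shown because it held that only match, in capitals (GRCm38.p6, RefSeq, chr13:119690101-119690400, plus strand, 5′ to 3′).
Hmgcs1 promoter: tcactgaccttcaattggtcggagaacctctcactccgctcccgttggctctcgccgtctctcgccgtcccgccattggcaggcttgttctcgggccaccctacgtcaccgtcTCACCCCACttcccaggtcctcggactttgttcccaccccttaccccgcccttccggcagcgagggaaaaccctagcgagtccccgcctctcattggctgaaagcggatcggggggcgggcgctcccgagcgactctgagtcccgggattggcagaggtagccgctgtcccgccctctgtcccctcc
Regulators of these genes are known to bind such elements, and the match describes letters only.

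Respiratory chain and TCA cycle genes rose in 19 of 20 cases, by less than the programmes above (median 0.65, 1.0 in wild type). Idh3a, of the TCA cycle, rose from 62.6–65.6 to 146–154 CPM and cytochrome c, Cycs, from 48.2–62.2 to 128–147 CPM, against 220.2–245 and 234–273 CPM in wild type. Ppargc1b, a coactivator of mitochondrial genes, fell (-0.89 ± 0.12, adjusted p = 3.25e-08).

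Cell cycle genes rose in CD28ko-labelled cells, and those of S phase came closer to wild type than those of mitosis. Of 30 genes of G1 and S phase, 28 rose and 2 fell, with a median of 2.56 against 3.28 in wild type. None differed upward from wild type and 23 differed downward, beside 20.8% and 22.4% of all genes. The MCM helicase subunits that license replication ended near wild type. Mcm6 stood at 116, 97.6, 100.3 and 93.8 CPM naive and 817, 882, 869.8 and 842 CPM at 24 h (3.06 ± 0.069, adjusted p = 8.08e-29), overlapping the 803–936 CPM of wild type (response difference -0.12 ± 0.091, 95% interval -0.31 to 0.062). Mcm3 went from 65.6–83.3 to 724–800.1 CPM and the transcription factor E2f1 from 5.09, 4.71, 4.73 and 4.1 CPM to 55, 58.4, 59 and 58.1 CPM (3.62 ± 0.099, adjusted p = 1.16e-26; wild type 84.3–100.1 CPM). Cyclin E genes lagged further behind: Ccne2 rose only to 19.7, 13.9, 17.5 and 16.5 CPM from 6.99, 6.19, 7.72 and 8.5 CPM, with wild type at 48.8–62.3 CPM (response difference -2.4 ± 0.22, adjusted p = 1.07e-10).

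Among the D-type cyclins, Ccnd2 rose from 360.5, 452, 431 and 413 CPM to 1255, 1402, 1431 and 1382 CPM (1.72 ± 0.082, adjusted p = 5.90e-20), above the 1036–1089.9 CPM of wild type. Ccnd3 fell from 263, 264, 259 and 249 CPM to 143, 143, 140.2 and 154 CPM (-0.84 ± 0.062, adjusted p = 1.76e-14) and held 271, 268, 258 and 249 CPM in wild type (response difference -0.96 ± 0.088, adjusted p = 1.17e-10). The promoter of Mcm6 is shown for TTTNNCGC, letters that E2F factors are known to bind. They were more frequent in this list than in promoters at large, in 13 of 27 windows (48.1%). Their share was 5.17% of all windows and 8.08% of those of tested genes. Of the windows of the mitosis genes, 1 of 17 held them (5.88%). In the Mcm6 window (GRCm38.p6, RefSeq, chr1:128359656-128359955, minus strand, 5′ to 3′ along the gene) 3 matches on either strand, 2 of which overlap, are in capitals.
Mcm6 promoter: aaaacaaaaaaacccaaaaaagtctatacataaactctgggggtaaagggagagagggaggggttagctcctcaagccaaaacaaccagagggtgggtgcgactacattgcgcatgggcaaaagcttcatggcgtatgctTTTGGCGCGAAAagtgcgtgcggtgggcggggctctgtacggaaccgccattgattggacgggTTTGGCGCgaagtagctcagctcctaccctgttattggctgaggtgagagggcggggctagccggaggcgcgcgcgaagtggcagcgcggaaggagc

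Mitosis genes rose in 19 of 20 cases with a median of 2.15, far from the 3.68 of wild type. The response of 19 was lower than in wild type, beside 22.4% of all genes. Aurkb, a kinase of chromosome segregation, went from 3.63, 1.48, 1.39 and 2.05 CPM to 38.9, 36.5, 35.6 and 33.9 CPM (4.08 ± 0.20, adjusted p = 2.44e-19), with wild type at 116, 125, 104 and 85.3 CPM (response difference -1.62 ± 0.31, adjusted p = 5.42e-05). Cdk1, the mitotic kinase, rose from 9.29, 3.51, 3.47 and 4.3 CPM to 66.3, 63.9, 60.1 and 59.4 CPM and to 159–222 CPM in wild type. Plk1 and Ccnb1 ended at 10.9–12.6 and 6.27–9.46 CPM against 23–47.5 and 18.9–32.5 CPM. Naive library 1 was the highest of the 4 for Aurkb, Cdk1, Ccnb2 and Mki67, and without it all 20 genes of the list rose, with a median of 2.61. Ccnb2, the one gene not called, stood at 8.54, 2.12, 2.34 and 2.41 CPM naive and 7.49, 4.44, 4.66 and 5.58 CPM at 24 h; without naive library 1 its change was 1.27 with an adjusted p of 3.52e-04. Mki67, the Ki-67 antigen, read 223, 49.7, 154 and 147 CPM in the stimulated libraries, and library 2 was as low for Cenpf (17.3, 2.89, 11.5 and 9.32 CPM, from 2.61–7.74 CPM naive). The naive and stimulated groups overlapped for both, as they did for Cenpe (5.63–9.33 and 5.39–29.9 CPM). All 3 have long transcripts. Over the longest 10% of genes stimulated library 2 had a median log2 deviation from its group mean of 0.0052. A part of transcript length in its low values was not tested. Without stimulated library 1, the Cenpf change lost its call (adjusted p = 0.067).

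**Figure D4:**
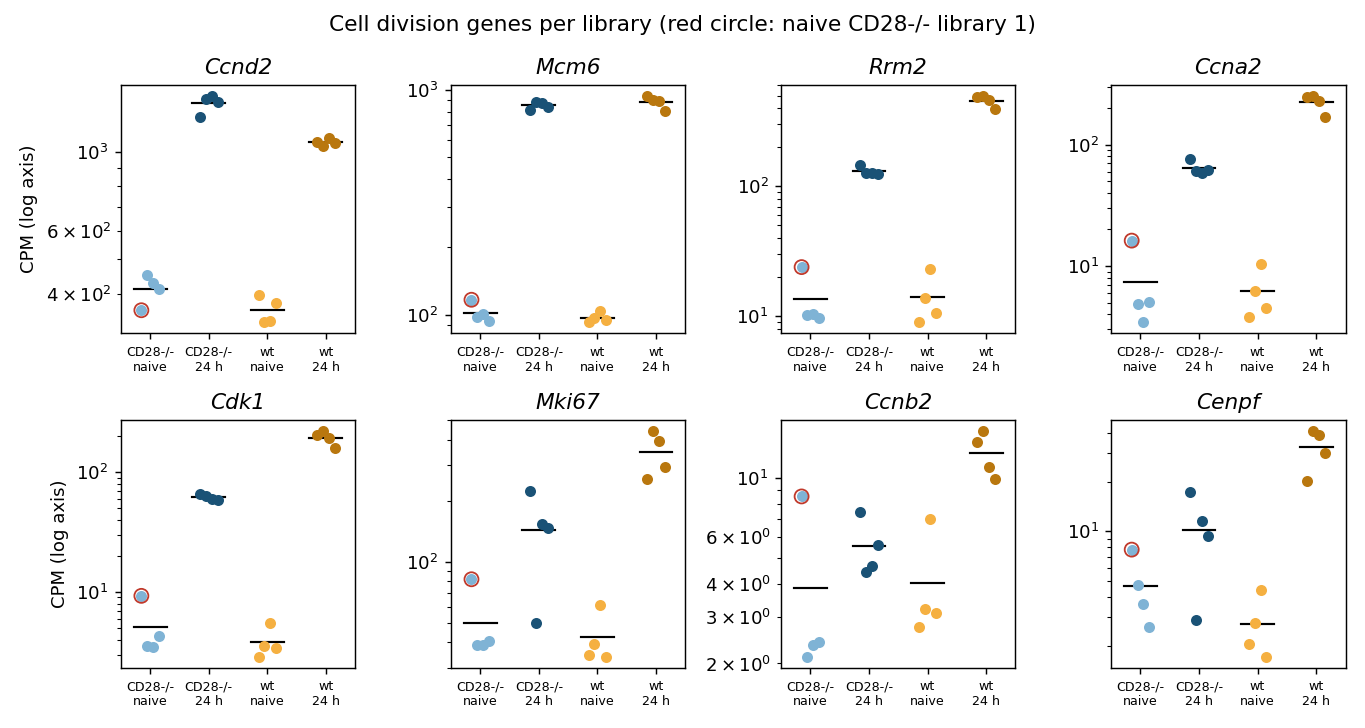
CPM on a log axis of genes of S phase entry and of mitosis in each naive and 24 h library of the CD28ko-labelled and wild-type mice, with group means as bars and naive CD28ko-labelled library 1 circled. Mcm6 reaches the wild-type range at 24 h, while Cdk1 stays at 59.4–66.3 CPM, below it.

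Brakes on division were lowered. Of 18 cyclin-dependent kinase inhibitors and antiproliferative factors, 13 fell and 4 rose (median -1.72, -2.12 in wild type). Cdkn1b, which encodes p27, fell from 388, 496, 549.6 and 457 CPM to 54.3, 50.4, 45.5 and 48.4 CPM (-3.25 ± 0.15, adjusted p = 2.08e-20) but stayed above the 18.1, 18.5, 20.1 and 21.3 CPM of wild type (response difference 1.34 ± 0.20, adjusted p = 1.42e-06). Tob1 and Btg2 fell to 11.7–14 and 74.3–91.5 CPM from 96.1–129.6 and 626–744 CPM. Cdkn1a, which encodes p21, rose from 6.9, 5.91, 9.15 and 7.58 CPM to 17.4, 13.6, 14.2 and 19.5 CPM, and to 55.1–69.8 CPM in wild type (response difference -1.78 ± 0.30, adjusted p = 8.87e-06).

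The naive programme was lowered, though less than in wild type. Of 20 genes of naive identity and trafficking, 19 fell and 1 rose, and the median was -2.49 against -3.34. Of them, 16 fell less than in wild type or rose more, beside 20.8% of all genes with a higher response. Klf2, the factor that maintains quiescence and the trafficking receptors, went from 647, 654, 699 and 639.7 CPM to 42.6, 33.8, 30.3 and 45.2 CPM (-4.12 ± 0.18, adjusted p = 6.42e-21), with 6.68, 5.14, 6.94 and 9.5 CPM left in wild type (response difference 2.84 ± 0.24, adjusted p = 2.99e-11). Its target S1pr1, by which T cells leave lymph nodes, fell from 1225–1451 to 45.2, 36, 29.9 and 51.9 CPM, against 3.97–7.01 CPM (response difference 2.92 ± 0.25, adjusted p = 3.89e-11). The homing receptor Ccr7 ended at 659–805 CPM, above the 430.4–538 CPM of wild type. Cxcr4 fell from 531–609 to 3.53–5.94 CPM, and its difference from wild type did not pass ( 0.92 ± 0.43, 95% interval 0.042 to 1.79, adjusted p = 0.0847), although it passed when only the compared libraries (adjusted p = 0.00102) or only female ones (adjusted p = 0.00179) were fitted. Tcf7, a factor of naive and long-lived T cells, fell from 1721, 1877, 1802 and 1736 CPM to 583, 615, 601 and 626 CPM and to 287–317 CPM in wild type. Bach2 rose, from 178, 236, 217 and 233 CPM to 461, 498, 500.5 and 462 CPM (1.15 ± 0.12, adjusted p = 3.49e-11), and by more than in wild type (response difference 0.82 ± 0.16, adjusted p = 9.48e-05). Dapl1 fell more than in wild type, to 21.1–28.5 CPM against 45.8–61.4 CPM.

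Among 20 regulators of PI3K, AKT and mTOR, the pathway to which CD28 is best known to couple, 12 fell and 6 rose. Of them, 11 had a response above that of wild type, beside 20.8% of all genes. Pik3ip1, an inhibitor of PI3K, fell from 173, 183, 216 and 194 CPM to 24.8, 21.5, 19.4 and 25.7 CPM (-3.06 ± 0.12, adjusted p = 5.52e-22) and to 4.27, 2.95, 3.28 and 4.29 CPM in wild type (response difference 2.76 ± 0.18, adjusted p = 1.09e-13). Sesn1, which restrains mTOR, fell to 61.2–64.9 CPM against 24.5–26.4 CPM. Pik3cd, the main catalytic subunit in T cells, did not pass the test (656, 700.0, 694 and 605 CPM naive and 622, 629.8, 586 and 591 CPM at 24 h). It passed under 5 alternatives, with changes of -0.16 to -0.20 and adjusted p-values from 0.00829 (DESeq2) to 0.0441 (without naive library 4). In wild type it fell to 332, 325, 325 and 342 CPM (response difference 1.2 ± 0.10, adjusted p = 4.23e-11).

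Survival genes shifted toward Bcl-xL, less than in wild type. Of 20 genes of the BCL2 family and of death receptors, 9 rose and 10 fell, near the background shares of 39.7% and 41.2%. Bcl2l1, which encodes Bcl-xL, rose from 19.7, 21.5, 22 and 20.7 CPM to 116, 136, 131 and 131 CPM (2.61 ± 0.084, adjusted p = 1.24e-24), and wild-type cells reached 269, 296, 297 and 330.1 CPM (response difference -1.25 ± 0.11, adjusted p = 1.49e-10). Bcl2 fell from 127–160.5 to 108–118 CPM and to 59.8–69.8 CPM in wild type. Bcl2l11, the pro-death protein Bim, rose from 117, 156, 157 and 152 CPM to 197, 213, 202 and 182 CPM (0.45 ± 0.096, adjusted p = 6.82e-05), where wild type fell to 85.5, 70.7, 77 and 83.1 CPM (response difference 1.34 ± 0.14, adjusted p = 1.10e-09). Mcl1 fell from 928–1069 to 456–473 CPM.

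Of 20 T helper lineage genes 11 fell and 3 rose. Gata3, of T helper 2 cells, fell from 44.7–57.6 to 10.7–11.3 CPM. The IL-12 receptor chain Il12rb1 rose from 1.9–3.63 to 67.6–72.2 CPM, whereas Il12rb2 did not pass (3.32, 2.63, 3.12 and 3.18 CPM naive and 2.34, 3.06, 3.09 and 2 CPM at 24 h) and rose in wild type to 15.7, 27.2, 22.3 and 14.7 CPM (response difference -3.37 ± 0.34, adjusted p = 1.22e-09). Il12rb2, Tbx21 and Ifng, all of the T helper 1 programme, thus each had a lower response than in wild type.

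Interferon-stimulated genes fell almost without exception, 19 of 21, beside 41.2% of all genes, with a median of -4.01 (-2.74 in wild type). The response was lower than in wild type for 7 and higher for 1, and for 13 the difference did not pass. Naive CD28ko-labelled libraries held more Ifit1 (43.7–101 against 14.5–27.3 CPM) and Isg15 (28.2–41.8 against 15.6–23.8 CPM). Naive levels of Irf7 overlapped between the genotypes (104–210 and 83.8–134 CPM). Irf7, the factor that amplifies the interferon response, went from 104, 209.9, 161 and 141 CPM to 4.56, 4.4, 3.41 and 3.89 CPM (-5.24 ± 0.26, adjusted p = 1.30e-19). The antiviral protein gene Rsad2 went from 14.7, 41, 25.9 and 24.3 CPM to 0.126, 0.129, 0.0803 and 0 CPM and Isg15 from 28.4, 41.8, 28.2 and 32.9 to 1.92, 1.81, 1.41 and 1.58 CPM. Naive library 1 was lowest and library 2 highest of the 4 for Irf7 and Rsad2. Gbp2 was the one that rose, from 78.2–99 to 399–512 CPM, and Bst2 fell from 67.6, 90.8, 75.2 and 71.7 CPM to 29.4, 33.7, 30.8 and 40 CPM while it rose in wild type to 78.2, 79.3, 78.9 and 87.9 CPM (response difference -1.94 ± 0.18, adjusted p = 1.49e-10).

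The largest increases among named genes that reached 5 CPM, with no overlap between the groups, were Bdh2, Npas4, Spin4, Bcat1, Il2, Etv4, Il2ra, Akr1c18, Tg and Dnph1. Bdh2, a dehydrogenase of the ketone body and siderophore type, rose from 0.133, 0, 0.0434 and 0 CPM to 38.5, 37, 38.4 and 45.4 CPM (9.6 ± 0.35, adjusted p = 3.35e-23), and to 13, 11, 11.8 and 14 CPM in wild type. Npas4, a calcium-induced transcription factor best known from neurons, rose from 0.619, 0.785, 0.651 and 0.563 CPM to 128, 112, 111 and 103 CPM (7.42 ± 0.22, adjusted p = 1.94e-25), with wild type at 45, 43, 41.8 and 60.3 CPM. Akr1c18, a steroid dehydrogenase, rose from 1.06, 0.831, 0.868 and 0.563 CPM to 82.1, 64.7, 61.3 and 80.4 CPM, above the 10.2–13.1 CPM of wild type. In all, 25 genes with no count in any of the 4 naive libraries were called. Lancl3 held 210 counts over the 4 stimulated libraries (2.26, 1.6, 2.61 and 2.04 CPM), at least 61.7-fold above the 3 counts over the naive group that a count of 0 allows. Dhrs9, a retinol dehydrogenase, was at least 34.7-fold higher, and Tnfrsf8, the activation receptor CD30, at least 17-fold, at 0.544, 0.561, 0.643 and 0.604 CPM. Dhrs9 stood at 1.42, 1.08, 1 and 1.28 CPM, above the 0.265–0.351 CPM of wild type.

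The 10 largest decreases held heat shock genes, genes of other cell types and the interferon-stimulated Rsad2 described above. Hspa1b, an inducible HSP70 gene, went from 756, 537, 633 and 692 CPM to 1.3, 0.992, 1.89 and 1.21 CPM (-8.92 ± 0.62, adjusted p = 2.16e-15) and its near-identical copy Hspa1a from 269.8–370.0 to 0.562–0.755 CPM, so reads may be split between them. C1qb and Slc40a1, both of macrophages, had no count at 24 h, at least 188-fold and 192-fold lower over the group than before. Csf1r, the macrophage growth factor receptor, fell from 18.4, 10.7, 9.24 and 10.9 CPM to 0.167, 0, 0 and 0 CPM. Gzma, of natural killer and cytotoxic T cells, fell from 19.7, 10.2, 7.81 and 10.7 CPM to 0.0418, 0.0431, 0.0402 and 0.113 CPM. The marker lists of other cells moved with these. All 14 myeloid markers fell (summed level 146 to 308 CPM naive and 39.5 to 47.6 CPM at 24 h), as did all 10 of natural killer and CD8 T cells (150 to 202 and 29.0 to 30.5 CPM). Of 15 B cell markers 14 fell (813 to 1541 and 251 to 387 CPM), and Fcer2a rose from 35.1, 22, 14.3 and 16.1 CPM to 50.7, 44, 39.6 and 40.2 CPM. Of 13 memory T cell markers 4 rose and 6 fell, with Ccl5 going from 22.1–37.8 to 0.82–1.67 CPM. Of the 7 defining markers of CD4 T cells that could be tested, 5 fell and 1 rose, with a median of -1.05. Of the 4 red cell markers that could be tested, all fell; their median was -6.28, and -4.82 without naive library 1. How much of the decreases called over all genes comes from the loss of such cells was not tested.

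Markers of regulatory T cells differed among themselves. Foxp3, their defining factor, stood at 4.73, 5.08, 3.43 and 5.28 CPM naive and 7.2, 6.6, 5.46 and 4.6 CPM at 24 h in CD28ko-labelled libraries and did not pass the test, but did without stimulated library 4 (0.47, adjusted p = 0.0461). Naive wild-type libraries held more, 23.7, 19.7, 21.5 and 21.9 CPM, and stimulated ones 8.23, 9.68, 9.44 and 10.3 CPM. Of 10 markers listed 7 rose, among them Il2ra, Nrp1 and Izumo1r, which activated conventional T cells also express, and 1 fell, Ikzf2, from 37.3–41 to 1.85–3.43 CPM. Naive Ikzf2 was higher than in wild type (21.7–29.3 CPM), and naive Izumo1r overlapped it (119–138 and 105–136 CPM). The higher naive Il2ra level of wild type lies beside the higher Foxp3 there, and a share of regulatory T cells in it was not tested.

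Genes that moved in opposite ways in the 2 genotypes were few. Of the 250, 217 were named genes with at least 5 CPM in 1 group, 118 higher after stimulation in CD28ko-labelled cells and 99 lower. Sh2d1a, which encodes the adaptor SAP of the SLAM receptors, fell from 43.6, 42.3, 42.4 and 49 CPM to 7.36, 7.29, 6.19 and 7.36 CPM (-2.65 ± 0.12, adjusted p = 1.88e-20) and rose in wild type to 63.1, 68.8, 69.3 and 55.9 CPM (0.82 ± 0.11), a response difference of -3.47 ± 0.16 (adjusted p = 2.60e-17). Ly6a, the surface protein Sca-1, fell from 106, 158, 126 and 171 CPM to 29.5, 33.1, 32.2 and 28.8 CPM and rose in wild type to 174, 272, 176 and 211 CPM (response difference -3.37 ± 0.33, adjusted p = 7.32e-10). Ifitm3, which blocks virus entry, fell to 2.05, 2.89, 2.13 and 1.96 CPM and rose in wild type to 17, 18.6, 17.8 and 15.9 CPM (-3.18 ± 0.23, adjusted p = 7.09e-13). In the other direction, Pdk2, an inhibitor of pyruvate dehydrogenase, rose from 8.54, 7.16, 7.38 and 6.04 CPM to 11.9, 11.9, 10.9 and 11.8 CPM and fell in wild type to 2.67, 2.53, 2.34 and 2.4 CPM (2.5 ± 0.24, adjusted p = 5.47e-10).

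Some responses were much larger in 1 genotype. Gucy1a1, a subunit of soluble guanylate cyclase, rose from 2.12, 1.8, 1.91 and 2.41 CPM to 20.3, 19.6, 22.1 and 19.7 CPM in CD28ko-labelled cells (3.31 ± 0.18, adjusted p = 1.88e-18) and held 2.14, 2.34, 2.73 and 2.28 CPM in stimulated wild-type cells (response difference 3.59 ± 0.25, adjusted p = 4.34e-13). Calcoco1 held 51.6, 48.1, 47.9 and 46.2 CPM before and 55.8, 53.5, 46.1 and 50.3 CPM after, with overlap, whereas wild-type cells fell from 47.1–62.8 CPM to 6.45, 6.12, 5.69 and 6.77 CPM (response difference 3.16 ± 0.16, adjusted p = 3.08e-16). Il1a, an inflammatory cytokine, stayed under 1 CPM in all 8 CD28ko-labelled libraries and reached 7.17, 10.3, 7.33 and 11.2 CPM in wild type (response difference -4.59 ± 1.14, adjusted p = 0.00126). Cth, the enzyme that makes cysteine, reached 0.502, 0.733, 0.603 and 0.604 CPM against 7.92, 7.71, 7.18 and 6.25 CPM (response difference -4.51 ± 0.94, adjusted p = 1.89e-04).

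Ratios between related genes, taken within a library and per length, show which form dominates without regard to library size. They are log2 ratios of counts plus 0.5, divided by gene length, and were not tested. For 15 of the 16 pairs listed, the 4 naive and 4 stimulated libraries did not overlap. The same held for 75.5% of all tested genes taken singly, and no share was computed over other pairs. Hk2 over Hk1 moved from -4.99 ± 0.32 to -0.75 ± 0.053 (SD, n = 4), so Hk1 remained the more abundant form, where stimulated wild-type cells reached 0.40 ± 0.09. Bcl2l1 over Bcl2 moved from -1.99 ± 0.11 to 0.92 ± 0.15 and to 2.93 ± 0.11 in wild type. Ccnd2 over Ccnd3 shifted more in CD28ko-labelled cells, from 0.44 ± 0.15 to 3.0 ± 0.10, against 1.78 ± 0.07. Nfatc1 over Nfatc2 did so too, reaching 3.29 ± 0.066 against 2.43 ± 0.13. Klf6 over Klf2 fell in CD28ko-labelled cells, from -0.044 ± 0.15 to -0.90 ± 0.21, and was 2.06 ± 0.50 in stimulated wild-type cells.

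**Figure D5:**
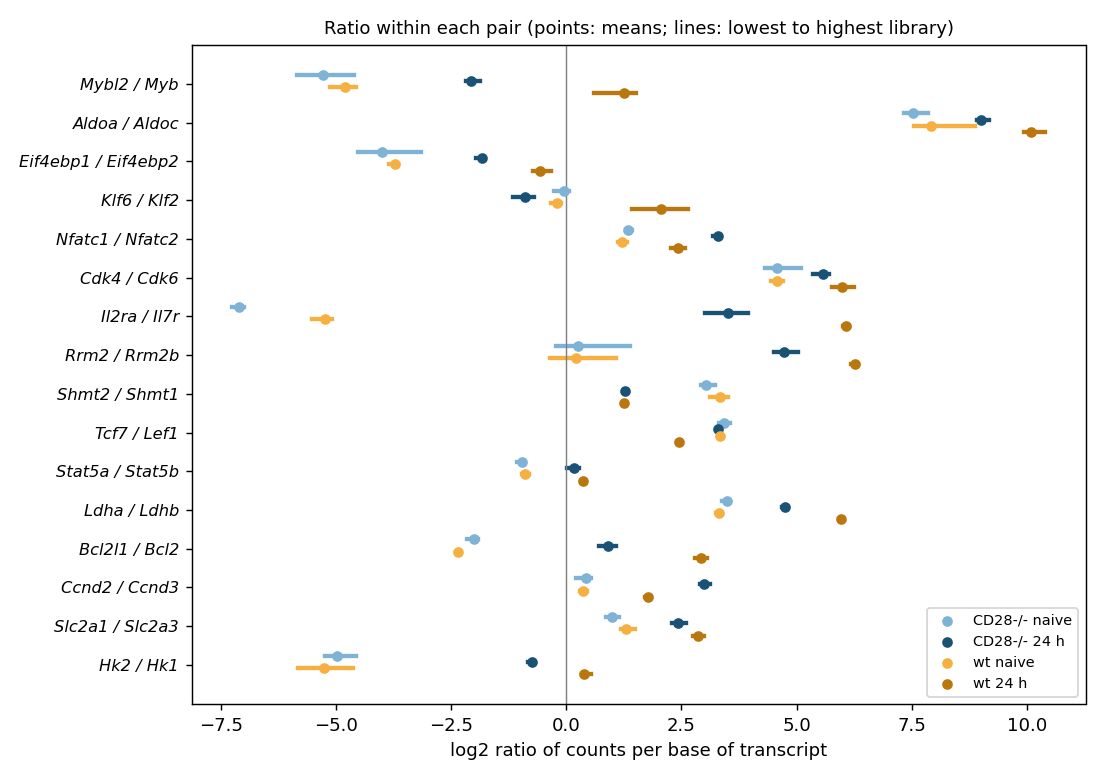
Log2 ratio of counts per base of transcript between the genes of each pair, with the mean of the 4 libraries of each group as a point and their lowest and highest value as a line. Hk2 over Hk1 stays below 0 in the stimulated CD28ko-labelled libraries, and Tcf7 over Lef1 is the pair whose naive and stimulated libraries overlap.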

How the data were processed

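Raw, whole-number gene counts of all 38 libraries make up the deposited table, beside a length in bases for each gene. Per the labels' protocols, RNA was extracted with TRI Reagent and a Direct-zol kit with DNase, and stranded TruSeq libraries gave single-end 76 nt reads. The submitters' processing notes name STAR 2.5.2a, FastQC 0.11.5, edgeR 3.24.3 and R 3.5, with mm10. Which program counted the reads, and on which annotation, the sources used here do not say, so counts of near-identical copies are uncertain.

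Symbols, positions and promoter windows came from RefSeq tables of GRCm38.p6, which matched 23968 of 24028 identifiers; the rest took 0.0749% of counts. Genes were kept by filterByExpr over the 10 groups, libraries were scaled by TMM, and one quasi-likelihood model of all 38 libraries was fitted, with each group as a level (edgeR 4.0.16, limma 3.58.1, R 4.3.3). Contrasts were tested two-sided with Benjamini-Hochberg adjustment over 13650 genes, and a gene was called below 0.05. The SE of a log2 change is its size over the square root of its F statistic, and the p-values measure the spread between mice of one group. Ratios of gene pairs used the deposited length, and the bound for a gene without counts uses 3 counts over the group and covers counting error only. The code was checked on simulated counts with known changes.

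The members and the gene lists were chosen with earlier results of these data known. The lists are the 21 programmes and the 8 marker lists whose counts the report gives. Genes were named by rule: Cd28, the largest increases, decreases and response differences of genes that averaged 5 CPM or more in either group, from each list the 6 smallest p and the members against its majority, and the 5 named genes highest at 24 h among those without naive counts (unnamed gene models left out throughout). Some list members are not reported here. Other list members and further examples were picked with their values known. The alternatives were DESeq2 1.42.0, its size factors, other filters on low counts, the compared libraries alone, a replicate block, a stricter threshold of 0.01, each library left out in turn, female libraries alone and another pseudocount (1 in place of 0.5).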

Additional observations from a re-analysis of the deposited data

Results flagged for a closer look

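Among 302 gene groups of 4 libraries, 21 held a library far from the other 3 by Dixon's test, where chance gives about 1 in 20. Naive CD28ko-labelled library 1 was that library for Ccl3 (9.73 CPM, others 3.37 to 4.08), Cdk1 (9.29, others 3.47 to 4.30), Ccnb2 (8.54, others 2.12 to 2.41), Mki67 (81.9, others 38.6 to 40.5), Cblb (155, others 213.5 to 218), Ncl (927, others 986 to 990.3) and Bcl2l11 (117, others 152 to 157). It also stood apart in the median log2 deviation of the longest genes, at -0.21. Other naive libraries stood apart for Egr3 (24.8 CPM) and Gar1 (18 CPM). At 24 h, library 1 stood apart for Plcg1 (186 CPM), Il12rb1 (67.6 CPM), Csf1r (0.167 CPM, others 0) and Ikzf2 (3.43 CPM), library 2 for Traf1 (212 CPM), library 3 for Dgkz (418 CPM), Sh2d1a (6.19 CPM) and Pdk2 (10.9 CPM), and library 4 for Batf (30.5 CPM), Ccl4 (30.7 CPM), Ccl3 (5.62 CPM) and Gzma (0.113 CPM).

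The response differed from that of wild type for 5905 genes by the edgeR test of the difference. Among genes called in opposite directions in the genotypes, the difference was largest for Tmem35a (-4.1), Nt5e (3.69), Sh2d1a (-3.47), Ly6a (-3.37), Pgpep1l (3.31), Ifitm3 (-3.18), Tmcc2 (2.83) and Lzts2 (2.73), on the log2 scale.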

How the results depend on the processing

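Every alternative kept the counts of called genes within 1.5 times those reported. The CD28ko-labelled response had 5104 genes higher and 5957 lower with DESeq2's size factors, 5116 and 5957 with DESeq2, 4403 and 4358 of 10188 at a mean of at least 5 CPM, 5497 and 5923 of 19485 without a filter, and 5295 to 5350 and 5462 to 5517 without 1 library. DESeq2's size factors moved the median of all genes from -0.041 to -0.11. With the replicate number as a replicate block the counts were 5402 and 5628, and 2841 and 2975 for the response difference. The numbers were not taken to pair the libraries. Deviations of same-numbered naive and stimulated CD28ko-labelled libraries correlated at 0.114, 0.0254, 0.11 and 0.11. Libraries 1, 3 and 4 correlated best with their own number, and library 2 with another (0.0841). Wild-type libraries correlated at 0.122, 0.169, 0.215 and 0.342, each best with its own number. A pairing is thus possible in both genotypes, and the main fit does not use it. Of the genes named, the block added calls for Ccnb2 (0.68, adjusted p = 0.0345) and for the differences of Il2 (adjusted p = 0.0481) and Slc2a1 (adjusted p = 0.0375). The change of Ctla4, near 0, ranged from -0.15 to 0.0035 when 1 library was left out, and turned upward without stimulated library 4. At a threshold of 0.01 Tnf, Il3 and Slc2a1 lost their calls, as did the response difference of Tnfrsf9 (0.62, adjusted p = 0.0161), and Il3 did without stimulated library 1 (adjusted p = 0.0559). The Slc2a1 change was also lost with DESeq2's size factors (adjusted p = 0.0536). Medians of lists with members on both sides changed sign: IL-2 receptor genes from 0.06 to -0.0096 with DESeq2's size factors, BCL2 genes from -0.12 to 0.0027 without naive library 1, and early transcription factors from -0.033 to 0.096 at 5 CPM, where cytokines had 2 members lower. The cause was not tested. Genes at a few CPM, such as Il2 in naive cells, have wide errors at this depth.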
